A study of Mus musculus with 6 samples.

Results

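Complement components and their receptors were described in cells sorted as microglia from the mouse retina as 9 genes, chosen by symbol and all found among the 21851 genes counted: C1qa, C1qb, C1qc, C3, C4b, C3ar1, C5ar1, Itgam and Itgb2. The study sorted CD45-positive cells with intermediate CD11b from dissociated retinae and made 6 Smart-seq2-type RNA-seq libraries of them. Of these, 3 carried the genotype label CD36 flox, whose mice the extraction protocol calls wildtype, and 3 the label CD36 CKO, a conditional knockout of the scavenger receptor CD36. The comparison asks how the cells differ when Cd36 is deleted. All samples carry 1 treatment text, which describes sodium iodate (NaIO3), an oxidant toxic to the pigment epithelium, given into a vein at 20 mg/kg, with buffer as control and collection on day 7. The labels used here leave unsaid which of these injections a library had, which Cre driver made the knockout, and the age and strain of the mice.

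Complement is a cascade of plasma and tissue proteins that tags targets for removal. In its classical branch the recognition protein C1q, built from A, B and C chains, binds a target, and its associated proteases split C4 and C2 so that C3 is cleaved. Cleavage of C3 and C5 frees the small peptides C3a and C5a, which act on the receptors C3aR1 and C5aR1, while C3 fragments left on the target are bound by complement receptor 3 (CR3), the pair of integrin chains CD11b (Itgam) and CD18 (Itgb2). Microglia are the main source of C1q in nervous tissue, and C1q, C3 and CR3 are known for their part in the removal of synapses by microglia. The alternative branch, which runs through factor B, amplifies C3 cleavage.

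The libraries held 13462683 to 20018910 counts and 15172 to 16092 genes with a count. Levels are counts per 1000000 counts of the library (CPM) scaled by TMM, edgeR's correction for library composition, and are listed in the order of replicates 1 to 3. Where no count was seen, up to 3 remain possible, which is 0.150 to 0.223 CPM on library totals without TMM scaling. Cd36 itself stood at 90.5, 193 and 144 CPM in flox, against 122, 65.2 and 28.5 CPM under the CKO label, so that the library labelled CKO 1 was above flox 1. Its log2 fold change, CKO against flox, was -0.98 and did not pass (unadjusted p 0.0896, adjusted p 0.9996, edgeR). The description codes of flox 2 and flox 3 differ only in OD and OS, as do those of CKO 2 and CKO 3, so each pair may be both eyes of 1 mouse. In that case each group holds 2 mice, and p-values that treat its 3 libraries as independent are too small. Haemoglobin transcripts were above 100 CPM in flox 2, flox 3 and CKO 1 (haemoglobin-positive libraries) and near 0 in flox 1, CKO 2 and CKO 3 (haemoglobin-negative libraries), and results are also given within each of these sets. The libraries of each possible pair of eyes lie in the same set, so each set may compare 1 flox mouse with 1 CKO mouse. Cd36 parted by these sets and not by the labels, at 122 to 193 CPM in the positive and 28.5 to 90.5 CPM in the negative libraries. Of all genes tested 10.8% were likewise higher in every positive library. Of 10 microglial markers 9 were in the data, all 9 with counts, and their summed level was 3229 to 6894 CPM in flox and 3225 to 5153 CPM in CKO. Rod photoreceptor transcripts (8 of 8) summed to 6329 to 17668 CPM, beside the microglial sums above. All 8 parted by haemoglobin, each higher in every positive library. Their sum was 6329 to 7484 CPM without haemoglobin, against 9950 to 17668 CPM with it. Whether rod RNA has a part in other differences between these sets was not tested.

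No member was called different between the groups. In edgeR's quasi-likelihood fit 0 of 9 members passed a Benjamini-Hochberg adjusted p of 0.05, beside 0 of 13477 genes tested, or 0.00%, and every member had an adjusted p of 0.9996. At an unadjusted p under 0.05 edgeR found 0 of the 9, beside 2.81% of all genes, 1.37% lower and 1.45% higher in CKO. DESeq2 also called 0 members, beside 0.151% of the genes it tested. It had C3 alone of the members at an unadjusted p under 0.05, beside 581 of the 18100 genes it fitted. limma-voom with sample weights called 0, with C3 and C5ar1 under 0.05 unadjusted, beside 738 of all 13477 genes. With the haemoglobin set as a term edgeR called 0 members, beside 0.0148% of all genes. The CPM ranges of flox and CKO overlapped for all 9 members. Of all genes tested, 4.12% had CKO wholly below flox and 3.88% wholly above. Of the 9 log2 fold changes (CKO against flox) 6 were above 0 and 3 below, with a median of 0.10. Of all genes tested 49.4% were below 0, with a median of 0.00374. In these bulk samples fewer cells of a type and less RNA per cell cannot be told apart.

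**Figure D1:**
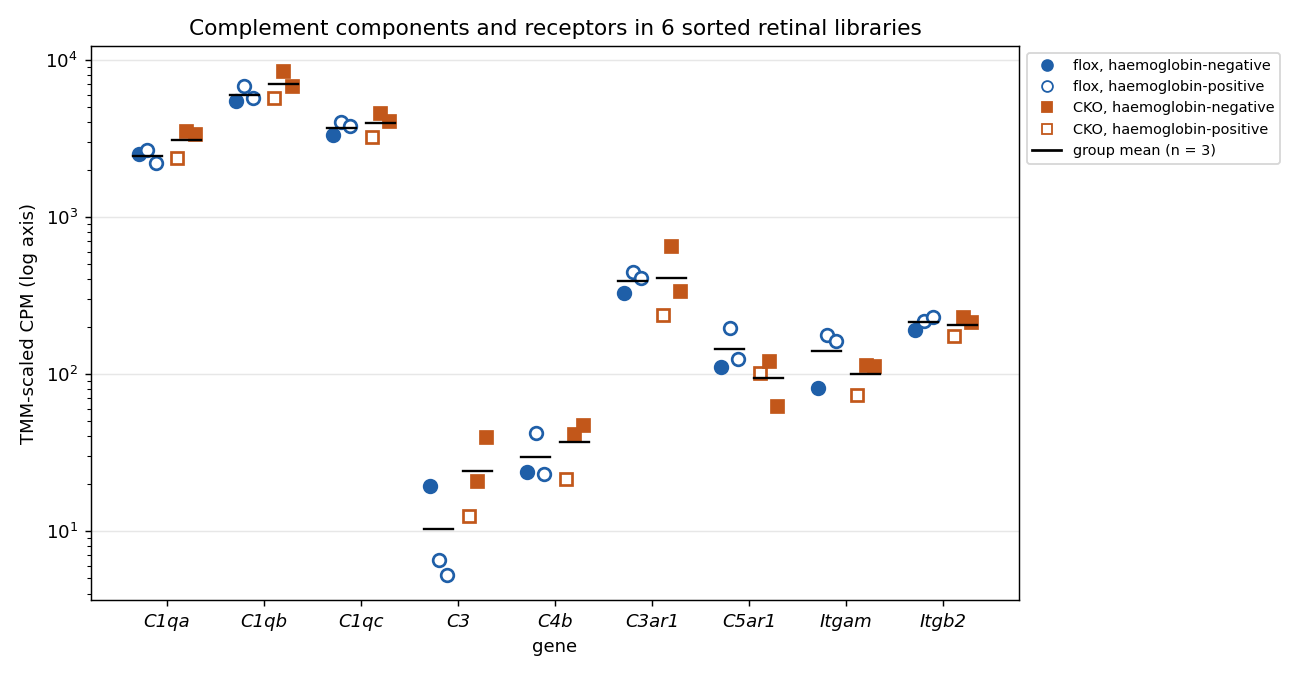
Level of each of the 9 genes in every library, in TMM-scaled CPM on a log axis. Circles are flox and squares CKO, filled for haemoglobin-negative and open for haemoglobin-positive libraries, and black bars are group means of 3 libraries. The C1q chains lie at 2194 CPM or more in every library, and C3 spans from 5.25 CPM in flox 3 to 39.4 CPM in CKO 3.

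The 3 C1q chain genes were the most abundant members, per kilobase of exon as well as in CPM. C1qb ranked 10 among the 21851 genes by mean CPM, C1qc 28 and C1qa 33, and the 3 together took 1.14% to 1.47% of the counts of a library. They lie side by side on the minus strand of chromosome 4 (GRCm38), C1qb at 136880129 to 136886187, C1qc at 136889804 to 136893065 and C1qa at 136895917 to 136898803, and no other annotated gene overlaps any of them. Promoter sequence of C1qb and C1qc is shown because these neighbouring genes had near-parallel levels over the libraries; C1qa had no entry in the promoter set used. Each runs 5′ to 3′ from 250 bases before to 50 bases after the start annotated by RefSeq (GRCm38.p6, minus strand), C1qb at chr4:136886151-136886450 and C1qc at chr4:136892865-136893164, and capitals mark matches to the motif AGGAAGT, an ETS-type core of the kind bound by the myeloid factor PU.1, here on the strand opposite to the gene.
C1qb: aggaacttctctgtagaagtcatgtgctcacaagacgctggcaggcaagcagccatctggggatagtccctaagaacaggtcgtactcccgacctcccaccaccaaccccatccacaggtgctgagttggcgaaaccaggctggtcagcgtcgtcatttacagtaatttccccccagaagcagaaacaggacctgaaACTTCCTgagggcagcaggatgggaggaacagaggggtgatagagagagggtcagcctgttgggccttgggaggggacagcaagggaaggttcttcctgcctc
C1qc: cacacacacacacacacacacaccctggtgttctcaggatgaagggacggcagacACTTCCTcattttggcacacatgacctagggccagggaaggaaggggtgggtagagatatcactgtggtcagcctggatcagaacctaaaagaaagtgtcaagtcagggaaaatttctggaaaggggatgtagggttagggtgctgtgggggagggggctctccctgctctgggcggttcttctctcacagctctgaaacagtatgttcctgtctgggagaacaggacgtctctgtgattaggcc
The match begins 53 bases before the start of C1qb and 195 bases before that of C1qc. On either strand this motif occurred in 9.35% of 32851 promoters of the same length, and in 3 of the 6 members that had a promoter entry. It is a description of these letters and not a binding site.

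C1qa, the A chain, stood at 2507, 2656 and 2194 CPM across the flox libraries, against 2379, 3502 and 3372 CPM across the CKO libraries. CKO 2 and CKO 3 were the highest libraries and CKO 1 lay within the flox range. The group means were 2452 ± 236 and 3084 ± 614 CPM (SD, n = 3 libraries a group here and below). This is a log2 fold change of 0.33 (SE 0.20), a ratio of 1.26 with a 95% interval of 0.918 to 1.72 (unadjusted p 0.132, edgeR). Without CKO 1 the log2 value was 0.48. In that edgeR fit C1qa and C3 had an unadjusted p under 0.05, beside 1180 of 13937 genes, while 0 members passed the adjustment.

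C1qb, the B chain, stood at 5469, 6779 and 5723 CPM across the flox libraries, against 5735, 8464 and 6763 CPM across the CKO libraries. CKO 2 was the highest library, while CKO 1 and CKO 3 lay inside the flox range. Its log2 fold change was 0.22 (SE 0.20), a ratio of 1.17 with a 95% interval of 0.851 to 1.60. C1qc, the C chain, stood at 3302, 3990 and 3782 CPM for flox against 3205, 4568 and 4072 CPM for CKO. Its groups overlapped through CKO 1, the lowest library of all, and its ratio was 1.07 (interval 0.793 to 1.44). For these 3 genes the intervals lay between a halving and a doubling, at the spread among the 6 libraries taken as independent. They are too narrow if pairs are eyes of 1 mouse, and in that case no exclusion can be read from them.

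The chains kept a steady proportion in every library. Per kilobase of annotated exon, C1qb made up 56.2% ± 1.55 of the summed C1q level over the 6 libraries (SD), with a range of 53.7% to 57.6%. C1qa made up 25.04% ± 1.94 (22.6% to 28.03%) and C1qc 18.7% ± 1.23 (17.5% to 21.0%). The order C1qb, C1qa, C1qc held in all 6 libraries on this length. The annotated exons of C1qc span 1931 bases but its longest transcript only 1203, and with longest transcripts as length the shares were 50.5%, 22.5% and 27.02%, so that C1qc was above C1qa. C1qb was the most abundant chain on both lengths.

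**Figure D2:**
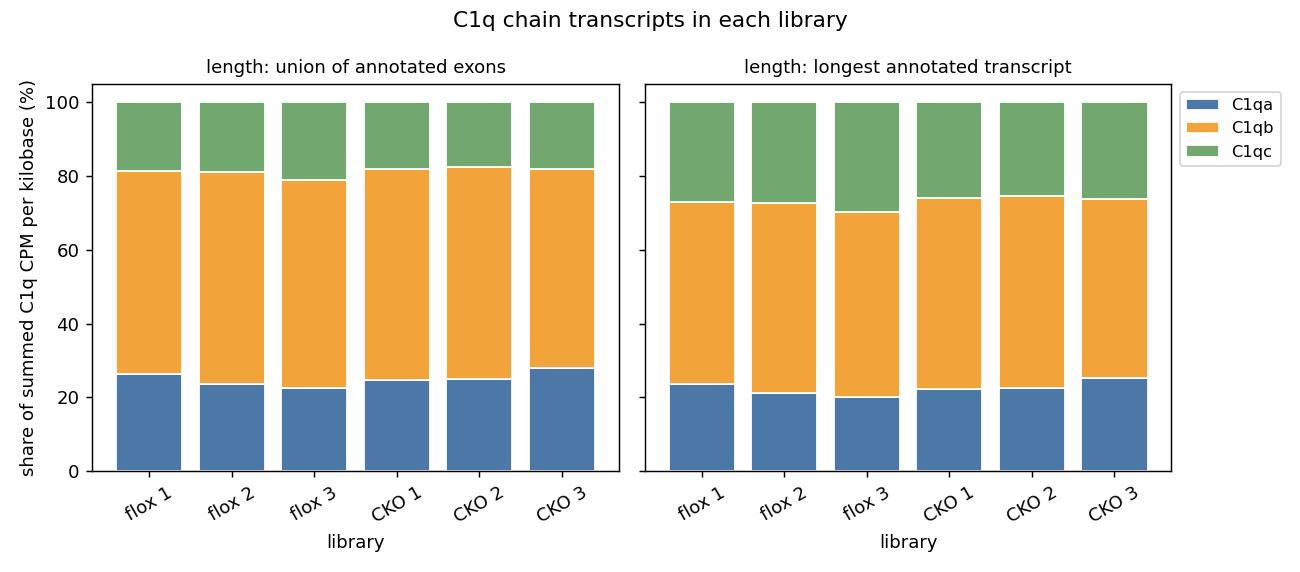
Share of each chain in the summed C1q level per kilobase, in percent, for each library, with the union of exons (left) or the longest transcript (right) as gene length. C1qb takes the largest share in every library on both lengths, and the order of C1qa and C1qc turns with the length.

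Within the libraries, the C1q sum followed neither label alone. It was 11278, 13426 and 11699 CPM across the flox libraries, against 11319, 16534 and 14207 CPM across the CKO libraries, and the lowest library was flox 1 and the next CKO 1. Within the haemoglobin-negative libraries the log2 ratios of CKO to flox were 0.46, 0.48 and 0.39 for C1qa, C1qb and C1qc, and within the haemoglobin-positive libraries -0.03, -0.12 and -0.28. In the haemoglobin-negative set CKO means CKO 2 and CKO 3, which may be 1 mouse, and flox means flox 1 alone. Macrophages of the tissue borders also make C1q. Their 7 listed markers, all with counts, summed to 995, 732 and 611 CPM across the flox libraries, against 819, 1855 and 1397 CPM across the CKO libraries, but most of this sum was Ms4a7. Ms4a7 alone stood at 760, 394 and 437 CPM for flox against 417, 1692 and 1239 CPM for CKO, and was the only one of the 7 to be highest in CKO 2 or CKO 3. The mannose receptor gene Mrc1 was lowest in CKO 2 and CKO 3, at 29.1 and 23.9 CPM against 36.3 to 53.1 CPM in flox, and so was the scavenger receptor gene Cd163, at 1.34 and 0.514 CPM. By haemoglobin, Ms4a7 was lower and Cd163 higher in every positive library, and the other 5 markers overlapped. The part of these cells in the C1q levels was not tested.

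The genes closest to the mean C1q profile, by the root mean square difference of centred log2 CPM over the 6 libraries, were Vhl, the von Hippel-Lindau tumour suppressor gene (0.0513), Necap2 (0.0541), Itm2c (0.0574), Prkag2 (0.0575) and Cst3 (0.0597). The chains themselves lay at 0.0952, 0.0516 and 0.0785 for C1qa, C1qb and C1qc from their own mean. Cst3, which encodes the secreted protease inhibitor cystatin C, an abundant microglial transcript, stood at 5459, 5989 and 5750 CPM for flox against 5334, 7443 and 7283 CPM for CKO. It shared with C1q a low level in flox 1 and CKO 1 and the highest levels in CKO 2 and CKO 3.

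C3, the central component that all branches cleave, was the least abundant member per kilobase of exon and the most variable. It stood at 19.3, 6.53 and 5.25 CPM across the flox libraries (398, 126 and 83 counts), against 12.5, 20.8 and 39.4 CPM across the CKO libraries (204, 248 and 767 counts), a 7.51-fold range. CKO 3 was the highest library, flox 2 and flox 3 the lowest, and flox 1 lay above CKO 1. The group means were 10.4 ± 7.76 CPM in flox and 24.2 ± 13.8 CPM in CKO. Its log2 fold change of 1.22 (SE 0.59), a ratio of 2.34 with a 95% interval of 0.903 to 6.05, had an unadjusted p of 0.0733 and an adjusted p of 0.9996 by edgeR. With libraries of a shared mouse code summed the log2 value was 0.84 (unadjusted p 0.268, edgeR). Without flox 1 it was 2.04 and without CKO 3 0.68.

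C3 was the only one of the 9 whose levels parted by haemoglobin, beside 22.4% of all genes tested (11.6% lower and 10.8% higher in the positive libraries). Haemoglobin-negative libraries spanned 19.3 to 39.4 CPM and haemoglobin-positive ones 5.25 to 12.5 CPM, a 3.27-fold difference of the means. CKO was above flox within each set, with log2 ratios of 0.64 in the haemoglobin-negative and 1.09 in the haemoglobin-positive libraries. Each set may compare 1 mouse with 1 mouse (above). In the negative set flox 1 stood at 19.3 CPM, and CKO 2 and CKO 3 at 20.8 and 39.4 CPM. With the haemoglobin set as a term the log2 fold change was 0.86 (unadjusted p 0.0196, adjusted p 0.9991, edgeR). In that fit 313 of 13477 genes had an unadjusted p under 0.05. Its p-values treat the libraries as independent and are too small if pairs are eyes of 1 mouse. The summed level of the 8 monocyte markers, all counted, was 552 to 711 CPM without haemoglobin and 160 to 328 CPM with it, but the list did not move as one. Of the 8, 3 parted in the direction of C3, Ly6c2 and Plac8 among them, 1 (F13a1) parted the other way, at 5.53 to 10.4 CPM without haemoglobin and 15.4 to 29.0 CPM with it, and 4 overlapped. Müller glia and astrocyte markers (7 of 7) summed to 551, 534 and 333 CPM across the flox libraries, against 414, 499 and 1064 CPM across the CKO libraries, highest in CKO 3 as C3 was. Of these 7 markers 5 were highest in CKO 3, while Gfap was highest in CKO 1 and Aldh1l1 in flox 1. The part of either cell type in the C3 level was not tested.

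C3 lies on chromosome 17 at 57203970 to 57228136 (minus strand), where the small gene Mir6978 sits inside it. Its promoter is shown because its levels were the widest of the 9. The stretch is RefSeq's (GRCm38.p6, chr17:57228087-57228386, minus strand), with capitals for a match to TTGCNNAA, a C/EBP-type motif found in 10.8% of the 32851 promoters and in 1 of the 6 members with an entry. C/EBP factors are known regulators of C3 in inflammation.
C3: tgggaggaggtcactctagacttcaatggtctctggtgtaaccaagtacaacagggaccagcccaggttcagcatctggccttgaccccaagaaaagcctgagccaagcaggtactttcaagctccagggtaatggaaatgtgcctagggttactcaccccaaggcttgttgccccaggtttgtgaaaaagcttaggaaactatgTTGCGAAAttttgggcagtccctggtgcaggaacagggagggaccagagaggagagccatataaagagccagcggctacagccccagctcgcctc
The match begins 45 bases before the start, on the strand of the gene. Nearest to the C3 profile over the 6 libraries were Emp2 (root mean square difference 0.178), Ksr1 (0.225), B3gnt8 (0.255), Cox4i2 (0.260) and S100a6 (0.260). S100a6, a calcium-binding protein gene, stood at 148, 61.6 and 44.7 CPM for flox against 109, 134 and 218 CPM for CKO.

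C4b, a C4 gene whose product the C1 proteases split, stood at 23.9, 41.9 and 22.95 CPM across the flox libraries, against 21.5, 41.5 and 47.3 CPM across the CKO libraries. Flox 2, CKO 2 and CKO 3 were high and the other libraries low, so that the labels did not part. Its ratio was 1.24 with a 95% interval of 0.713 to 2.17 (log2 0.31, SE 0.35). The ratio turned with the haemoglobin set, at log2 0.89 within the negative and -0.59 within the positive libraries. Flox 2 and flox 3, which may be eyes of 1 mouse, differed 1.83-fold. C4b (chromosome 17, 34728380 to 34743882, minus strand) has a near-identical neighbour, C4a, which was not analysed here, and its value is uncertain where reads could belong to either.

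Among the anaphylatoxin receptors, C3ar1, the receptor of C3a (chromosome 6, 122847138 to 122856161), stood at 329, 442 and 406 CPM across the flox libraries, against 237, 656 and 337 CPM across the CKO libraries. CKO held both the lowest and the highest library. Its ratio was 1.05 with a wide 95% interval of 0.595 to 1.84, and CKO 2 and CKO 3, which may be eyes of 1 mouse, differed 1.94-fold. The log2 fold change of 0.06 turned to -0.46 without CKO 2 and to -0.12 with libraries of a shared mouse code summed. Within the haemoglobin-negative libraries it was 0.60 and within the positive -0.84.

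C5ar1, the receptor of C5a (chromosome 7, 16246743 to 16259540), was the member with the most negative difference. It stood at 112, 195 and 124 CPM across the flox libraries, against 101, 120 and 62.9 CPM across the CKO libraries. CKO 3 was lowest and flox 2 highest, and CKO 2 lay between flox 1 and flox 3, so that the groups overlapped through it. The means were 144 ± 45.01 and 94.8 ± 29.2 CPM, a log2 fold change of -0.60 (SE 0.29) and a ratio of 0.660 with a 95% interval of 0.413 to 1.05. edgeR gave an unadjusted p of 0.0751, and 0.0713 with libraries of a shared mouse code summed (log2 -0.57), with adjusted p-values of 0.9996 in both fits. The sign held within each haemoglobin set (log2 ratios -0.28 and -0.66) and without any single library (-0.81 to -0.32). CKO 2 and CKO 3 differed 1.91-fold, more than the groups did.

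The C5ar1 promoter is shown as the gene whose difference kept its sign in every setting tried, together with C3. It is RefSeq's (GRCm38.p6, chr7:16259289-16259588, minus strand), with capitals for AGGAAGT on the opposite strand, at 190 and 72 bases before the start.
C5ar1: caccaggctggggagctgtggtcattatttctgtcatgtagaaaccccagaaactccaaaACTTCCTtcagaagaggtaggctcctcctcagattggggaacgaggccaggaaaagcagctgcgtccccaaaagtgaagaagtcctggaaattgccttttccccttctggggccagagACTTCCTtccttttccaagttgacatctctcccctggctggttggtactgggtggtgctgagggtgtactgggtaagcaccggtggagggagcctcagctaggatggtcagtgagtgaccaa
The interferon-stimulated response element and the composite ETS and IRF element were matched on neither strand in the 6 member promoters, and occurred in 3.44% and 2.72% of all promoters. The 6 members with an entry were C1qb, C1qc, C3, C3ar1, C5ar1 and Itgam.

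The receptors for the 2 peptides were present in varying proportion. Per kilobase of exon, the ratio of C3ar1 to C5ar1 was 1.76, 1.35 and 1.95 in flox 1 to 3 and 1.40, 3.26 and 3.20 in CKO 1 to 3. CKO 2 and CKO 3, of a shared mouse code, were highest, and CKO 1 lay within the flox range. Per kilobase the other C5a receptor gene, C5ar2, stood at 1.92 to 2.81 CPM over the 6 libraries, below the 24.5 to 75.9 CPM of C5ar1.

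Itgam, which encodes CD11b and was the antigen of the sort gate, stood at 81.1, 176 and 161 CPM across the flox libraries, against 73.3, 114 and 113 CPM across the CKO libraries. Flox 2 and flox 3 were high, and flox 1 and CKO 1 low. The cells were chosen by CD11b protein, so that the level of its transcript is not independent of the sort. The means were 140 ± 51.3 and 100.3 ± 23.3 CPM, a ratio of 0.718 with a 95% interval of 0.437 to 1.18 (log2 -0.48, SE 0.31, unadjusted p 0.162, edgeR). The sign turned with the haemoglobin set, at log2 0.49 within the negative and -1.20 within the positive libraries. Itgam (chromosome 7, 128062640 to 128118491, plus strand) shares 55809 bases on the same strand with Gm49368, had fractional counts in 6 of 6 libraries, and is uncertain to that extent. Gm49368 held 1.09 to 2.47 CPM.

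Itgb2, the common beta chain CD18 of the leukocyte integrins (chromosome 10, 77530252 to 77565708, plus strand), was the steadiest member. It stood at 190, 217 and 231 CPM across the flox libraries, against 174, 231 and 213 CPM across the CKO libraries, a 1.33-fold range. The ratio was 0.969 with a 95% interval of 0.738 to 1.27 (log2 -0.05, SE 0.17). Its alpha chain Itgax, the CD11c chain of complement receptor 4 (named after its values were seen), stood at 148, 32.02 and 53.7 CPM for flox against 67.5, 135 and 162 CPM for CKO. Per kilobase the ratio of Itgam to Itgax was 0.524, 0.810 and 0.667 in the haemoglobin-negative libraries flox 1, CKO 2 and CKO 3, and 5.27, 2.87 and 1.04 in the haemoglobin-positive libraries flox 2, flox 3 and CKO 1. Dendritic cells also carry CD11c, and their 5 listed markers, all counted, summed to 40.3 to 63.3 CPM without haemoglobin and 16.5 to 22.1 CPM with it. Of these, 4 were lower in every positive library (Flt3, Xcr1, Clec9a and Zbtb46) and Cd209a overlapped. The part of dendritic cells in the Itgax level was not tested. Itgal, the LFA-1 alpha chain, stood at 66.2, 60.4 and 49.1 CPM for flox against 68.9, 70.3 and 74.96 CPM for CKO, groups that did not overlap (log2 fold change 0.29, SE 0.17).

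Monocytes and neutrophils also carry C5aR1, CD11b and CD18. Monocyte markers, which did not move as one list (above), summed to 160 to 552 CPM in flox and 328 to 711 CPM in CKO. Neutrophil markers summed to 29.1 to 216 CPM in flox and 9.55 to 169 CPM in CKO, with Camp and Ngp at 0 in all libraries and Ly6g at 1 count in flox 1 and 0 in the others. Natural killer cell markers (5 of 5) summed to 52.6 to 193 CPM in flox and 135 to 167 CPM in CKO. The part of these cells in the receptor levels was not tested.

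**Figure D3:**
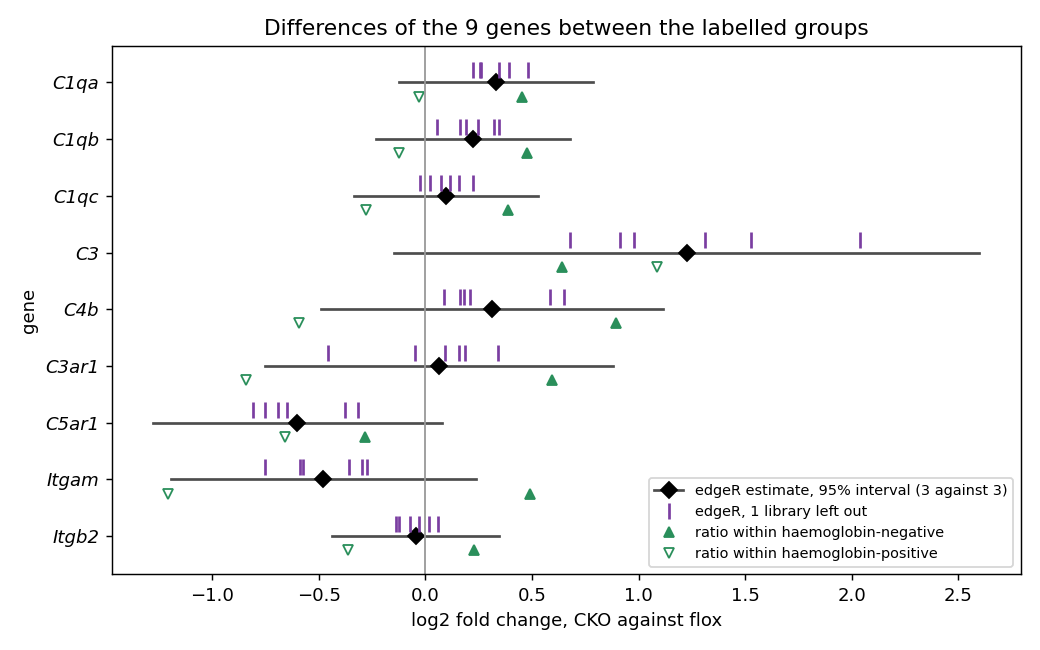
Log2 fold change of each gene, CKO against flox. Diamonds and lines are the edgeR estimate and its 95% interval over all 6 libraries, purple ticks the same fit with 1 library left out, and green triangles the ratio of means within haemoglobin-negative (filled) or haemoglobin-positive (open) libraries. All intervals cross 0, and the triangles of C3 and of C5ar1 are the only pairs on 1 side of 0.

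Per kilobase of exon the members formed 3 tiers. The C1q chains stood at 1978 to 5964 CPM per kilobase (means over 6 libraries), the receptors at 23.9 to 93.2 and the cleaved components C4b and C3 at 5.83 ± 2.04 and 3.36 ± 2.44 (SD over 6 libraries). C3ar1 (93.2 ± 33.3), Itgb2 (68.6 ± 7.51) and C5ar1 (46.4 ± 16.8) had ranges that overlapped, and C3ar1 and Itgb2, like Itgb2 and C5ar1, traded ranks between libraries. Itgam (23.9 ± 8.30), whose range overlapped that of C5ar1, ranked 7 of 9 in every library, C4b 8 and C3 9, although the ranges of C4b and C3 overlapped. C3 was thus the least abundant member in all 6 libraries, beside C1qb as the most abundant.

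The rest of the pathway was examined in 51 listed genes, of which 50 were in the table, 8 had no count in any library and 27 passed the filter on low counts. edgeR called 0 of these 27, and DESeq2 called 0. In edgeR 3 of the 27 had an unadjusted p under 0.05 (among them Masp1 and Cd59a), beside 2.81% of all genes. Log2 fold changes were above 0 in 16 and below in 11, with a median of 0.09, beside 0.00374 over all genes. The groups did not overlap in 4 of the 27, with CKO lower for Masp1 and Cd46 (background 4.12%) and higher for C8g and Itgal (background 3.88%).

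Of the initiating proteases and lectins 5 of 13 were tested, 2 with a positive and 3 with a negative log2 fold change. Masp1, a protease of the lectin branch, stood at 3.34, 11.6 and 5.44 CPM across the flox libraries, against 1.66, 0.251 and 1.39 CPM across the CKO libraries. These levels rest on few counts, 69, 223 and 86 in flox and 27, 3 and 27 in CKO. All CKO libraries lay under all flox libraries, but its log2 fold change of -2.60 (SE 0.76) did not pass (unadjusted p 0.00861, adjusted p 0.9996 by edgeR, and adjusted p 0.135 by DESeq2). C1ra, the C1r protease that acts with C1q, stood at 3.49, 0.725 and 1.39 CPM for flox against 3.13, 4.94 and 7.30 CPM for CKO. C1s1, its partner protease, held 0 to 4.41 CPM in flox and 0.502 to 5.33 CPM in CKO. Per kilobase both proteases of the C1 complex stood at 2.45 CPM or less in every library, and C1qb at 5026 CPM or more. The scavenger lectin Colec12 stood at 5.18 to 26.5 CPM in flox and 6.43 to 11.9 CPM in CKO. Mbl1, Fcnb, Masp2, C1rb and C1s2 had no count, and Mbl2 no more than 9 counts in a library.

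Genes of the alternative branch were counted in all libraries except Cfd. Cfb, factor B, stood at 124, 37.4 and 45.1 CPM across the flox libraries, against 39.05, 165 and 143 CPM across the CKO libraries. The haemoglobin-negative libraries held 124 to 165 CPM and the positive ones 37.4 to 45.1 CPM, a 3.55-fold difference of the means, while within the sets the log2 ratios of CKO to flox were 0.32 and -0.08. Cfp (properdin, which steadies the alternative convertase) stood at 37.7 to 73.2 CPM in flox and 42.2 to 90.2 CPM in CKO. C2, which is split in the classical branch and is not part of the alternative one, stood at 4.55 to 16.7 CPM in flox and 14.2 to 28.4 CPM in CKO.

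Of the terminal pathway, which builds the membrane attack complex, 1 of 7 genes was tested. C8g stood at 0.775 to 1.33 CPM in flox and 1.90 to 4.02 CPM in CKO, groups that did not overlap (log2 fold change 1.33, SE 0.64, unadjusted p 0.0701, edgeR). Hc, the mouse gene of C5, held at most 6 counts in a library, and C7 and C9 held 0.

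Among soluble regulators, Serping1, the C1 inhibitor gene, stood at 44.8, 8.60 and 5.12 CPM across the flox libraries, against 44.2, 31.8 and 70.3 CPM across the CKO libraries. Flox 2 and flox 3 were low and the other 4 libraries high (log2 fold change 1.32, SE 0.76, unadjusted p 0.124, edgeR). Clu, clusterin, stood at 207 to 591 CPM in flox and 434 to 1303 CPM in CKO, and Vtn, vitronectin, at 187 to 336 and 128 to 468 CPM. Of the membrane regulators Cd59a, an inhibitor of the attack complex, stood at 39.9, 38.1 and 59.2 CPM for flox against 119, 56.02 and 58.7 CPM for CKO. CKO 1 was highest and flox 3 lay above CKO 2 and CKO 3, with a log2 fold change of 0.77 (SE 0.33) that did not pass (unadjusted p 0.0467, adjusted p 0.9996, edgeR). Cr1l, which encodes Crry, the main rodent membrane regulator of C3, had a steady level of 71.7 to 85.3 CPM in flox and 69.8 to 103 CPM in CKO. Cd46 stood at 3.32 to 5.18 CPM in flox and 2.42 to 3.31 CPM in CKO, and Cd59b and Susd4 were below 4 CPM in all libraries.

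Among other receptors and partners, Cd93, a surface protein linked to the uptake of apoptotic cells, stood at 11.97 to 21.6 CPM in flox and 19.3 to 26.2 CPM in CKO (log2 fold change 0.54, SE 0.27). Calr, calreticulin, which binds C1q on dying cells, stood at 341 to 395 CPM in flox and 245 to 353 CPM in CKO, and Cspg4, the NG2 proteoglycan gene, at 2.42 to 8.91 and 1.80 to 2.94 CPM. Vsig4, the complement receptor of tissue macrophages known as CRIg, had 1 count in all libraries together, and Cr2, the B cell receptor for C3 fragments, had at most 6 in a library. Of the 27 tested genes 9 parted by haemoglobin, 4 lower and 5 higher in the positive libraries, beside the 22.4% of all genes given above. Those lower were C1ra, Cfb, Itgax and Cd93, as C3 was, and those higher included Fcna, Colec12, Calr and Cspg4.

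**Figure D4:**
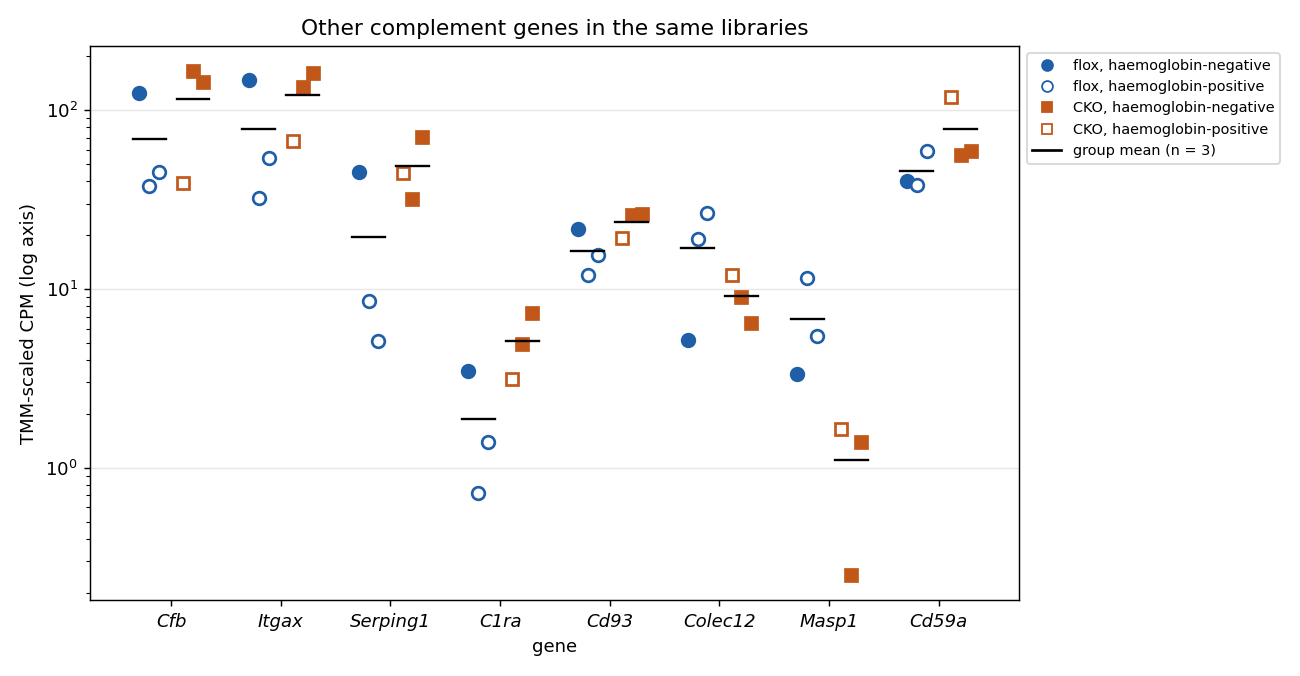
Levels of 8 other complement genes in every library, in TMM-scaled CPM on a log axis, with symbols as in the plot of the 9 members. The genes were picked after their values were seen. Their order follows the haemoglobin sets or the labels, except for Serping1 and Cd59a, whose levels overlap between the labels and between the sets. Filled symbols of Cfb and Itgax lie above the open ones, and the CKO squares of Masp1 lie under the flox circles.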

How the data were processed

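The authors deposited 1 table of estimated counts per gene symbol, unscaled; 16.6% of its values were not whole numbers. Per the submitters' processing notes, fastp 0.18.0 and HISAT2 2.2.4 were used with mm10. How genes were counted (tool, annotation, strand) is not given in the sources here, so overlapping or antisense genes cannot be separated. Of 21956 rows 83 without a symbol were left out (0.0122% to 0.0185% of counts), and 22 rows with a repeated symbol were summed. Estimated counts were rounded before testing.

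Groups were compared in edgeR 4.0.16 under R 4.3.3 (TMM, filterByExpr, robust quasi-likelihood fit without covariates, prior count 0.125), adjusting by Benjamini-Hochberg over 13477 genes; SE and 95% intervals come from that fit. Groups came from the genotype labels. Alternatives were DESeq2 1.42.0, limma-voom (limma 3.58.1), 3 other scalings, 2 other filters, a threshold of 0.1, the title number as a block, the haemoglobin set as a term, libraries of a shared mouse code summed and each library left out; ratios within the haemoglobin sets were added after seeing the data. Nothing says that libraries came from separate mice, and p-values measure the spread between them. Floors of 3 counts cover counting error only. The fits were checked on simulated data. Exon lengths and positions are GENCODE M21 (GRCm38), promoters RefSeq's. The microglial marker Fcrls and C4a were not analysed here, and 1 tested complement gene is not reported here.

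Members, gene lists and tests were chosen with earlier results of these data known. Named were all members, up to 4 tested genes of smallest p per role list, every other tested complement gene under an unadjusted p of 0.05 and the 5 genes nearest in profile to C1q and to C3. Fcna, Cr1l, C5ar2, Itgax and the untested genes were named after their values were seen.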

Additional observations from a re-analysis of the deposited data

How the results depend on the processing

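Across all alternatives 0 of the 9 members and 0 other complement genes passed the adjustment. Of all genes DESeq2 called 23 and the fit with the haemoglobin set as a term 2; the other settings, the threshold of 0.1 and each library left out gave 0. The signs of C3 and C5ar1 held in 18 of 18 alternatives. Library totals alone moved the median of all genes to -0.12 (log2) and turned C1qc to -0.042 and C3ar1 to -0.10. C3ar1 was also turned by the replicate block (-0.059), the haemoglobin term (-0.12) and summed mouse codes (-0.12). Ratios within the haemoglobin-positive libraries, added after seeing the data, were of opposite sign for C1qa (-0.028), C1qb (-0.12), C1qc (-0.28), C4b (-0.59) and C3ar1 (-0.84), and within the negative libraries for Itgam (0.49) and Itgb2 (0.23). The causes were not tested. With 1 library left out, log2 fold changes ranged from 0.22 to 0.48 for C1qa, 0.06 to 0.34 for C1qb, -0.026 to 0.22 for C1qc, 0.68 to 2.04 for C3, 0.09 to 0.65 for C4b, -0.46 to 0.34 for C3ar1, -0.81 to -0.32 for C5ar1, -0.75 to -0.27 for Itgam and -0.14 to 0.059 for Itgb2. Without length scaling the C1qa, C1qb and C1qc shares were 21.1%, 49.6% and 29.3%, since C1qc has the longest exon annotation. With the longest transcript as length C1qc stood at 3175 CPM per kilobase. For title numbers 1 to 3, deviations of same-numbered libraries from their group means correlated at -0.32, 0.00509 and -0.33 across genes. Each number joins a haemoglobin-positive and a haemoglobin-negative library, so these values cannot tell whether the numbers pair the libraries. With the replicate block edgeR called 0 genes, with 265 of all genes and C5ar1 and Itgam of the members at an unadjusted p under 0.05.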
